A study of Mus musculus with 6 samples.

Results

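The genes described here encode the machinery with which nerve terminals store and release transmitter: 40 genes for synaptic vesicle proteins, SNAREs (the membrane fusion proteins) and their regulators, active zone proteins, Rab3 proteins, vesicular glutamate transporters and proteins of vesicle endocytosis. They were chosen by name, as a list of presynaptic genes, from the 55471 genes of a hippocampal count table, and each of the 40 was found in it. Earlier results of these data were known when the list was chosen. Their transcripts were compared between mice that lost CBP in forebrain excitatory neurons (CBP-ifKO, 3 libraries) and control littermates (Control, 3 libraries). CBP is a transcriptional coactivator with lysine acetyltransferase activity, encoded by Crebbp.

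All mice were C57BL/6 in the labels and C57BL/6J in the methods, were 3 to 6 months old, and received 5 doses of tamoxifen, controls included. CBP-ifKOs carried floxed Crebbp alleles and the CaMKIIα-creERT2 driver, and after recombination express a truncated CBP without acetyltransferase activity. Because the driver is active in excitatory neurons of the forebrain, interneurons, glia and vessels of the dissected hippocampus should keep CBP. The methods describe several CBP-ifKO experiments, 1 of them with pooled hippocampi of female mice and the others with single animals, and the labels do not say which one these libraries are. The p-values therefore measure only the spread between libraries, whether of pools or of single mice. The controls were described as littermates without the driver, although 1 label field of the Control samples names it. Esr1, part of which belongs to the creERT2 construct, stood at 6.29, 6.27 and 5.65 CPM in Control and at 67.0, 69.4 and 63.6 CPM in CBP-ifKO libraries. CPM are counts scaled to a common library size with TMM factors.

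At the terminal, vesicles loaded with transmitter are held in clusters by synapsins, docked and primed at the active zone by RIM and Munc13 proteins, and fused with the plasma membrane by SNAREs when calcium enters. The ATPase NSF and its SNAP adaptors then take the SNAREs apart, and dynamin, amphiphysins and synaptojanin retrieve the membrane. In the hippocampus most of these terminals release glutamate and express the transporter VGLUT1, encoded by Slc17a7.

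The libraries held 10199008 to 14950257 counts, and the replicates varied with a common biological coefficient of variation of 6.81%. Crebbp, the targeted gene, was measured at 209, 156 and 208 CPM in Control and at 109, 87.1 and 99.4 CPM in CBP-ifKO, with no overlap between the groups. Its log2 ratio of CBP-ifKO over Control as fitted by edgeR, here log2FC, was -0.96 (SE 0.0997, edgeR adjusted p 3.63e-05). The edgeR test at an adjusted p under 0.05 called 6.39% of the 17981 genes that passed a filter on low counts, 897 as lower in CBP-ifKOs and 252 as higher. With TMM scaling 78.1% of the called genes were lower, and with total counts as the only scaling 56.5% were.

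All 40 release machinery genes passed the filter on low counts. Of these, 8 fell in CBP-ifKOs and none rose (edgeR, adjusted p under 0.05), which is 20% of the list, where 4.99% of all genes tested fell and 1.4% rose. Most of these genes are abundant, and among genes averaging at least 10 CPM the share that fell was 7.46%, against 8 of 38 members. This floor does not match the members in abundance, as their median level was 222 CPM and that of all genes tested 13.8 CPM. The genes that fell were Sv2c, Unc13a, Cplx2, Stx1a, Vamp1, Rims1, Syn2 and Napb. At an unadjusted p under 0.05, 21 of the 40 were lower, where 13% of all genes were, and 0 were higher. DESeq2 called 7 of the 40, all of them lower, where it called 723 of all genes as lower. With limma-voom 9 of the 40 were called, all of them lower, where 903 of all genes were called as lower. A negative log2FC was found in 36 of the 40, where 50.7% of all genes had one. When libraries were scaled by total counts it was found in 32 of the 40, where 41.7% of all genes had one. In 19 members (47.5%) every CBP-ifKO library lay below every Control library, where this held for 13.9% of all genes tested and for 16.9% of those averaging at least 10 CPM. In 0 members was every CBP-ifKO library above every Control library, where 11.8% of all genes tested had this order. The median log2FC over the members was -0.15, and over all genes tested -0.003. With library totals only, 3 of the 40 fell, where 667 of the 17981 genes tested did.

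**Figure D1:**
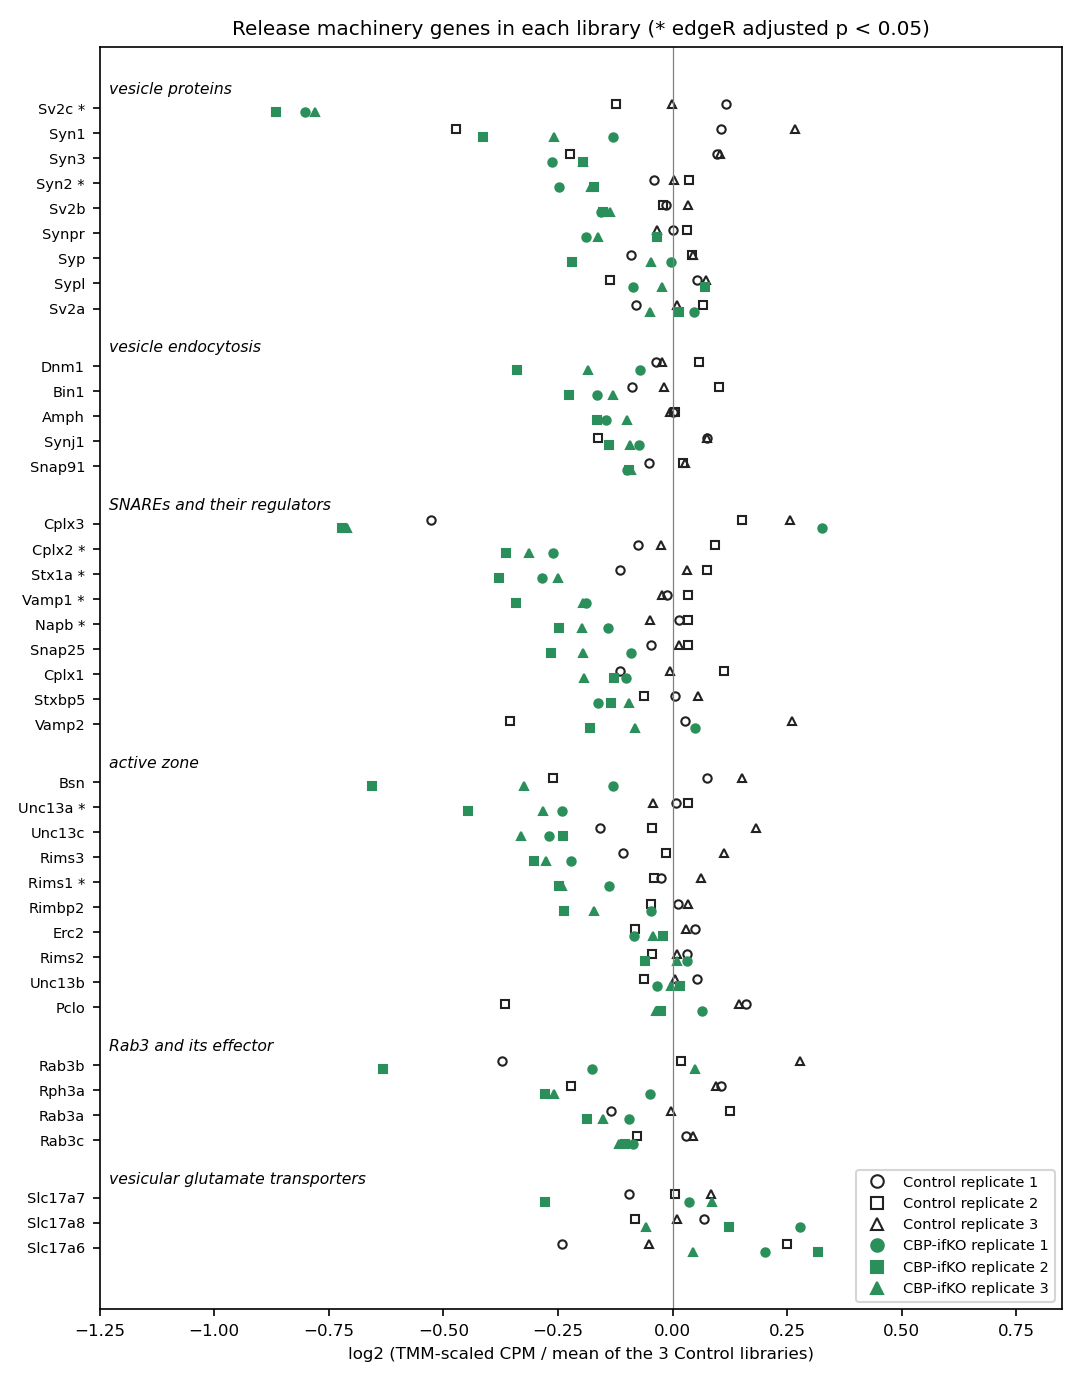
Each row is 1 of the 40 genes, grouped by role, and each symbol is 1 library, placed on the horizontal axis at the log2 ratio of its TMM-scaled CPM to the mean of the 3 Control libraries. Open symbols are Control, filled symbols CBP-ifKO and an asterisk marks an edgeR adjusted p under 0.05; most filled symbols lie left of 0, by less than 0.5 except in Sv2c, Cplx3, Bsn and Rab3b.

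CBP works as a partner of CREB, a factor that binds the sequence TGACGTCA or its shorter form TGACG. The sequences before the transcription start were therefore searched, on both strands, for these motifs, for the GC box GGGCGG and for TATAAA. RefSeq windows (GRCm38.p6, 250 bases before to 50 after a start) were at hand for 35 of the members, which had 47 windows in all. The sequences printed are those of Unc13a and Sv2c, which fell under every alternative processing tried, and of Syn1, the only member with a complete TGACGTCA. Each is given 5′ to 3′ on the strand of the gene, with motif matches in capitals on either strand, and ends just before the more upstream of the RefSeq and GENCODE starts.
Unc13a (chr8:71671758-71672007, minus strand): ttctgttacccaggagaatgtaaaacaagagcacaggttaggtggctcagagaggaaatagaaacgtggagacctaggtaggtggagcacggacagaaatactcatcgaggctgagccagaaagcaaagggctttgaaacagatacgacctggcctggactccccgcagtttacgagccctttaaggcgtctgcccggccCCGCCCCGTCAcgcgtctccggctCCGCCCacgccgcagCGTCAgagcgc
Sv2c (chr13:96132578-96132827, minus strand): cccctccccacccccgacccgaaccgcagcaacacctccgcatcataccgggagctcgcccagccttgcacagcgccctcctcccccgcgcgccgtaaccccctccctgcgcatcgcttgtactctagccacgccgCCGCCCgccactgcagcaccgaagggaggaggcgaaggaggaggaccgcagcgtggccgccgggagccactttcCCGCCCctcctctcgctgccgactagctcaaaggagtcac
Syn1 (chrX:20921005-20921168, minus strand): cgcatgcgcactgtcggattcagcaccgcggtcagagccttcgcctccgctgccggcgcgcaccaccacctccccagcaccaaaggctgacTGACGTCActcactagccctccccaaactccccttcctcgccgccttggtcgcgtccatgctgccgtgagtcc

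In the stretch of Unc13a the capitals mark 2 GC boxes and 2 TGACG matches, all read from the opposite strand, and the first of each stand side by side. Sv2c had 2 GC boxes and no TGACG, and Cplx2, the other gene that fell under every alternative, had none of the 4 motifs in its window. The RefSeq window of Cplx2 lies well upstream of the GENCODE start of the gene, where no sequence was searched. Among the 47 windows of the members, 9 (19.1%) held TGACG, where 20.8% of all 32851 windows did, and 1 (2.13%) held TGACGTCA, where 1.79% did. TGACG lies within TGACGTCA, so a window with the longer motif counts for both. GC boxes stood in 28 member windows (59.6%), against 35.7% of all windows, and TATAAA in 3 (6.38%), against 13.6%. Of the 8 genes that fell, Unc13a and Stx1a had a TGACG match. These matches describe letters in a window and not bound sites, and windows of 1 gene can overlap.

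The vesicle proteins were represented by 9 genes, of which Sv2c and Syn2 fell and 7 did not pass the test (median log2FC -0.15). Of all genes tested 4.99% fell. SV2 proteins are membrane glycoproteins of synaptic vesicles. Sv2c (GRCm38 chromosome 13, 95954594 to 96132577), the least abundant SV2 gene, stood at 35.9, 30.4 and 33.1 CPM in Control libraries and at 19.0, 18.2 and 19.3 CPM in CBP-ifKO libraries. The CBP-ifKO values lay close together and far below all Control values. The means were 33.1 ± 2.73 and 18.8 ± 0.581 CPM (SD, n = 3), and the log2FC of -0.81 was the largest in the list (SE 0.0937, edgeR adjusted p 9.38e-05).

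The main SV2 genes of the tissue did not pass the test. Sv2b reached 686, 683 and 709 CPM in Control and 622, 624 and 630 CPM in CBP-ifKO libraries (log2FC -0.15, SE 0.0519, edgeR adjusted p 0.107). Its groups did not overlap. Sv2a had log2FC 0.00 (SE 0.0578), at 351 ± 17.5 CPM for Control and 352 ± 11.7 CPM for CBP-ifKO (SD, n = 3).

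Synapsins tether vesicles to each other and to actin. Syn2 (chromosome 6, 115134902 to 115282006) was the most abundant vesicle protein gene per length, at 88.5 ± 2.32 RPKM in Control and 77.1 ± 2.26 RPKM in CBP-ifKO libraries (SD, n = 3), where RPKM are TMM-scaled CPM per kilobase of exon. On the CPM scale it stood at 605, 638 and 624 in Control and at 524, 553 and 550 in CBP-ifKO libraries, again without overlap. The log2FC was -0.20 (SE 0.0538, edgeR adjusted p 0.0368). Syn2 shares 1.28% of its exon bases with Timp4 on the other strand.

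Syn1 had a similar log2FC, -0.26, but a wider spread. Its values were 91.3, 61.1 and 102 CPM in Control and 77.5, 63.7 and 70.9 CPM in CBP-ifKO libraries (SE 0.131, edgeR adjusted p 0.264). Control 2 was the lowest of all 6 libraries, so that the groups overlapped, and the log2FC was -0.45 without Control 2 (edgeR adjusted p 0.00172) but -0.10 without Control 3 (edgeR adjusted p 0.748). With offsets that remove trends on GC content and length it was -0.12 (edgeR adjusted p 0.693). Syn3 was low, at 18.6, 14.9 and 18.7 CPM in Control and 14.5, 15.2 and 15.2 CPM in CBP-ifKO libraries (log2FC -0.21, edgeR adjusted p 0.313), and shares 14.1% of its exon bases with Timp3.

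Synaptophysin (Syp) and its relatives Sypl and Synpr are tetraspanning vesicle proteins, and none of them passed the test. Syp stood at 397, 435 and 436 CPM in Control and at 422, 363 and 409 CPM in CBP-ifKO libraries (log2FC -0.09, SE 0.0653, edgeR adjusted p 0.483), with 16.8% of its exon bases shared with Gm14703 on the other strand. Synpr, which marks mossy fiber terminals, had a log2FC of -0.12 (SE 0.0624, edgeR adjusted p 0.265) and no overlap. Sypl, a form found in many tissues, had -0.01 (SE 0.0808, edgeR adjusted p 0.977).

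Of the 9 genes for SNAREs and their regulators, Cplx2, Stx1a, Vamp1 and Napb fell (median log2FC -0.19), where 4.99% of all genes tested fell. All 9 had a log2FC below 0, where 50.7% of all genes tested had one. In 6 every CBP-ifKO library lay below every Control library, where this held for 13.9% of all genes tested.

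Complexins clamp and promote SNARE-driven fusion. Cplx2 (chromosome 13, 54371349 to 54383917) stood at 898, 1009 and 930 CPM in Control and at 789, 735 and 761 CPM in CBP-ifKO libraries. No CBP-ifKO library reached the lowest Control value. The log2FC was -0.31 (SE 0.0583, edgeR adjusted p 0.00396), and on the per-length scale the mean fell from 192 ± 11.6 to 155 ± 5.49 RPKM (SD, n = 3). Cplx1, at 102 ± 7.93 and 92.5 ± 3.07 RPKM, had a log2FC of -0.14 (SE 0.0637, edgeR adjusted p 0.218) and overlapping groups. Cplx3 was close to the detection limit of these libraries, at 1.5, 2.4 and 2.58 CPM in Control and 2.71, 1.31 and 1.32 CPM in CBP-ifKO libraries. Its log2FC of -0.33 had the largest error in the list (SE 0.322, edgeR adjusted p 0.62), and CBP-ifKO 1 was the highest of all 6 libraries.

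Syntaxin 1A (Stx1a) and SNAP-25 are the SNAREs of the plasma membrane, and synaptobrevins (Vamp1 and Vamp2) those of the vesicle. Stx1a (chromosome 5, 135023482 to 135051100) stood at 47.7, 54.4 and 52.8 CPM in Control and at 42.4, 39.7 and 43.4 CPM in CBP-ifKO libraries. Its groups did not overlap, and the log2FC was -0.30 (SE 0.0767, edgeR adjusted p 0.025). Vamp1 (chromosome 6, 125215551 to 125245964) stood at 70.0, 72.2 and 69.4 CPM in Control and at 61.9, 55.7 and 61.6 CPM in CBP-ifKO libraries. CBP-ifKO 2 was the lowest, all 3 lay below Control, and the log2FC was -0.24 (SE 0.0685, edgeR adjusted p 0.0433).

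Snap25 was the most abundant of the 40 genes on both scales, with 241 ± 6.95 RPKM in Control (SD, n = 3). It stood at 1582, 1673 and 1650 CPM in Control and at 1536, 1361 and 1427 CPM in CBP-ifKO libraries. The groups did not overlap, but the log2FC of -0.18 missed the threshold (SE 0.0571, edgeR adjusted p 0.069). Vamp2, the main synaptobrevin of forebrain, spread widely in Control, at 193, 148 and 227 CPM, and stood at 196, 167 and 179 CPM in CBP-ifKO libraries. Its groups overlapped, with a log2FC of -0.07 (SE 0.108, edgeR adjusted p 0.776).

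Napb encodes β-SNAP, the brain form of the adaptor that recruits NSF to used SNARE complexes. Napb (chromosome 2, 148693985 to 148732467) stood at 750, 761 and 718 CPM in Control and at 674, 626 and 648 CPM in CBP-ifKO libraries. The groups were separate, and the log2FC was -0.19 (SE 0.0546, edgeR adjusted p 0.0421). Stxbp5 (tomosyn, which binds syntaxin and holds back priming) had a log2FC of -0.13 (SE 0.0562, edgeR adjusted p 0.195) and no overlap.

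**Figure D2:**
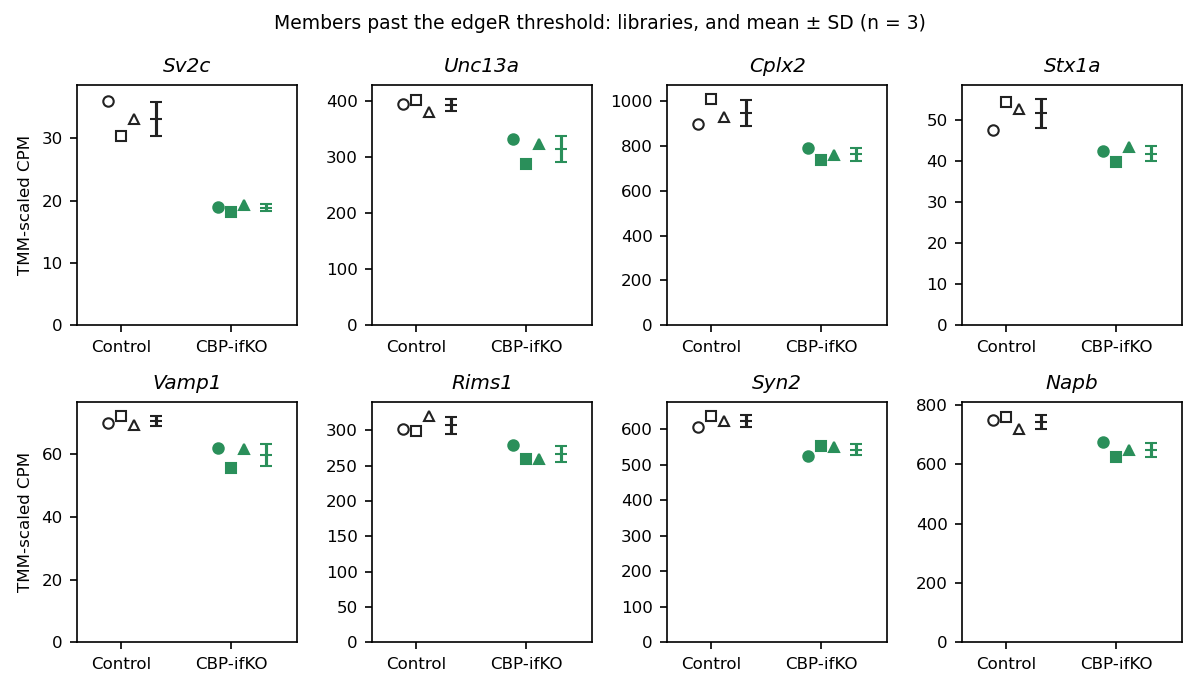
TMM-scaled CPM of the 8 genes that fell, with 1 symbol per library (circles, squares and triangles are replicates 1, 2 and 3) and, beside them, the mean ± SD of the 3 libraries. Each vertical axis starts at 0; in none of the 8 panels do the CBP-ifKO values reach the lowest Control value, and only in Sv2c is the gap a large part of the level.

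Of the 10 active zone genes, Unc13a and Rims1 fell and 8 did not pass the test (median log2FC -0.18), where 4.99% of all genes tested fell. Munc13 proteins prime docked vesicles for fusion. Unc13a (chromosome 8, 71624417 to 71671757), which encodes Munc13-1, stood at 395, 402 and 381 CPM in Control and at 332, 288 and 323 CPM in CBP-ifKO libraries. CBP-ifKO 2 was the lowest, and all 3 lay below Control. The log2FC was -0.32 (SE 0.0616, edgeR adjusted p 0.00438). Unc13a shares 3.92% of its exon bases with Colgalt1 on the other strand.

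The paralogues of Unc13a differed in their values. Unc13b had log2FC 0.00 (SE 0.0587, edgeR adjusted p 0.979), at 148 ± 6.06 and 148 ± 2.49 CPM (SD, n = 3). Unc13c, at 25.6, 27.7 and 32.4 CPM in Control and 23.7, 24.2 and 22.7 CPM in CBP-ifKO libraries, had no overlap and a log2FC of -0.28, but did not pass the test (SE 0.099, edgeR adjusted p 0.11).

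RIM proteins tether calcium channels and vesicles at the release site. Rims1 (chromosome 1, 22286251 to 22805994) stood at 302, 299 and 321 CPM in Control and at 279, 259 and 260 CPM in CBP-ifKO libraries. The groups did not overlap, and the log2FC was -0.21 (SE 0.0575, edgeR adjusted p 0.0393). Rims2 was at 190 ± 5.28 and 189 ± 6.01 CPM (SD, n = 3; log2FC 0.00, SE 0.0569). Rims3 encodes a short RIM form, and its log2FC of -0.27 lay just outside the threshold (SE 0.0776, edgeR adjusted p 0.0507), with no overlap. With the GC and length offsets it was -0.13 (edgeR adjusted p 0.301). Rimbp2, a partner of RIM, had a log2FC of -0.15 (SE 0.0648, edgeR adjusted p 0.202).

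Bassoon and Piccolo are the giant scaffolds of the active zone. Bsn (chromosome 9, 108096022 to 108190384) had the second largest log2FC of the list, -0.35, but did not pass the test (SE 0.11, edgeR adjusted p 0.0673). It stood at 438, 347 and 462 CPM in Control and at 380, 264 and 332 CPM in CBP-ifKO libraries. Replicate 2 was the lowest library in both groups, and the groups overlapped. Without Control 2 the log2FC was -0.46 (edgeR adjusted p 0.00416), and with offsets for GC content and length it was -0.12 (edgeR adjusted p 0.543). Pclo was at 737, 512 and 730 CPM in Control and at 690, 648 and 643 CPM in CBP-ifKO libraries. Only Control 2 stood apart, and the log2FC was 0.00 (SE 0.0991). Erc2, an ELKS scaffold and the most abundant active zone gene per length (43.7 ± 2.05 RPKM in Control, SD, n = 3), stood at 440, 402 and 434 CPM in Control and at 401, 419 and 413 CPM in CBP-ifKO libraries. Its groups overlapped (log2FC -0.05, SE 0.0562, edgeR adjusted p 0.693).

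None of the 4 genes for Rab3 proteins, small GTPases of the vesicle, and their effector rabphilin (Rph3a) passed the test (median log2FC -0.17). Rab3a, the most abundant per length (125 ± 11.2 RPKM in Control, SD, n = 3), stood at 254, 304 and 278 CPM in Control and at 261, 245 and 251 CPM in CBP-ifKO libraries. The groups overlapped in 1 library each, and the log2FC was -0.15 (SE 0.0657, edgeR adjusted p 0.213). Rab3c had no overlap (log2FC -0.10, SE 0.0547, edgeR adjusted p 0.298). Rph3a had a log2FC of -0.19 and Rab3b of -0.24, with edgeR adjusted p-values of 0.201 and 0.456. Rab3b shares 9% of its exon bases with 8030443G20Rik.

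The 3 vesicular glutamate transporters, which fill vesicles with glutamate, had a median log2FC of 0.12, above those of the other role groups, and none of them passed the test. Slc17a7 (VGLUT1; chromosome 7, 45163949 to 45176142) stood at 519, 556 and 587 CPM in Control and at 568, 457 and 588 CPM in CBP-ifKO libraries. CBP-ifKO 2 was the lowest and CBP-ifKO 3 the highest of the 6, and the log2FC was -0.04 (SE 0.0798, edgeR adjusted p 0.814). Slc17a6 (VGLUT2), at 17.8, 25.0 and 20.3 CPM in Control and 24.2, 26.2 and 21.7 CPM in CBP-ifKO libraries, had a log2FC of 0.19 (SE 0.119, edgeR adjusted p 0.39). Slc17a8 (VGLUT3), at 6.2, 5.58 and 5.95 CPM in Control and 7.17, 6.44 and 5.68 CPM in CBP-ifKO libraries, had 0.12 (SE 0.157, edgeR adjusted p 0.731). All 3 had overlapping groups. Per length, Slc17a7 exceeded the others many times, at 103 ± 6.29 RPKM in Control against 3.9 ± 0.673 for Slc17a6 and 1.25 ± 0.0654 for Slc17a8 (SD, n = 3).

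Vesicle endocytosis was represented by 5 genes. None passed the test. All had a log2FC below 0 (median -0.14), where 50.7% of all genes tested had a negative log2FC. In 4 of the 5 every CBP-ifKO library lay below every Control library, where this held for 13.9% of all genes tested. Dnm1, the neuronal dynamin that pinches vesicles off the membrane and the most abundant of the group per length (139 ± 4.87 RPKM in Control, SD, n = 3), stood at 711, 758 and 717 CPM in Control and at 694, 576 and 641 CPM in CBP-ifKO libraries. CBP-ifKO 2 was the lowest, and the log2FC was -0.19 (SE 0.0655, edgeR adjusted p 0.0901). Amph (amphiphysin) stood at 242, 243 and 241 CPM in Control, the tightest Control group of the list, and at 219, 216 and 226 CPM in CBP-ifKO libraries. All 3 CBP-ifKO values were lower, and the log2FC was -0.14 (SE 0.054, edgeR adjusted p 0.151). Bin1, a second amphiphysin, and Snap91 (AP180, a clathrin assembly protein) had log2FCs of -0.17 and -0.09 with edgeR adjusted p-values of 0.113 and 0.335. Synj1, a lipid phosphatase that uncoats vesicles, had overlapping groups (log2FC -0.10, SE 0.0651, edgeR adjusted p 0.404).

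Where a family has several members, their shares of the family's counts per kilobase were compared, a measure that does not depend on library scaling. It can still carry trends on GC content and length, and the shares were not computed with offsets for these. Over 9 families and 25 shares, 11 shares did not overlap between the groups. Shares were not computed for other gene families, so this count has no background to be set against. The shares of a family sum to a fixed total and are not independent, so that Bsn and Pclo, for example, mirror each other and both count. The smallest p an exact permutation test can give with 3 against 3 libraries is 0.1 (two-sided), which was reached by these 11, and the p adjusted over the 25 shares was 0.227, so that no share passed the threshold and none could have. Within the SV2 family, Sv2c held 2.12% ± 0.221 in Control and 1.28% ± 0.0484 in CBP-ifKO (SD, n = 3), and Sv2a 46.8% ± 1.42 and 49.7% ± 1.01. Cplx2 held 65.2% ± 0.525 of the complexin counts in Control and 62.4% ± 0.932 in CBP-ifKO, with the remainder almost entirely in Cplx1. Of the Munc13 counts, Unc13a held 76.1% ± 1.28 and 73.0% ± 1.82, and Unc13b 15.9% ± 0.716 and 19.1% ± 1.27. Rims1 went from 61.8% ± 0.374 to 59.4% ± 0.661 and Rims2 from 28.7% ± 0.882 to 31.8% ± 0.617. In the pair of giant scaffolds, Bsn held 47.2% ± 1.62 in Control and 40.8% ± 3.79 in CBP-ifKO. Bsn has 59.8% GC and Pclo 45.4%. Their log2FCs were -0.35 and 0.00 as fitted, and -0.12 and 0.05 with GC and length offsets. In the synapsin, VAMP, Rab3 and VGLUT families every share overlapped.

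**Figure D3:**
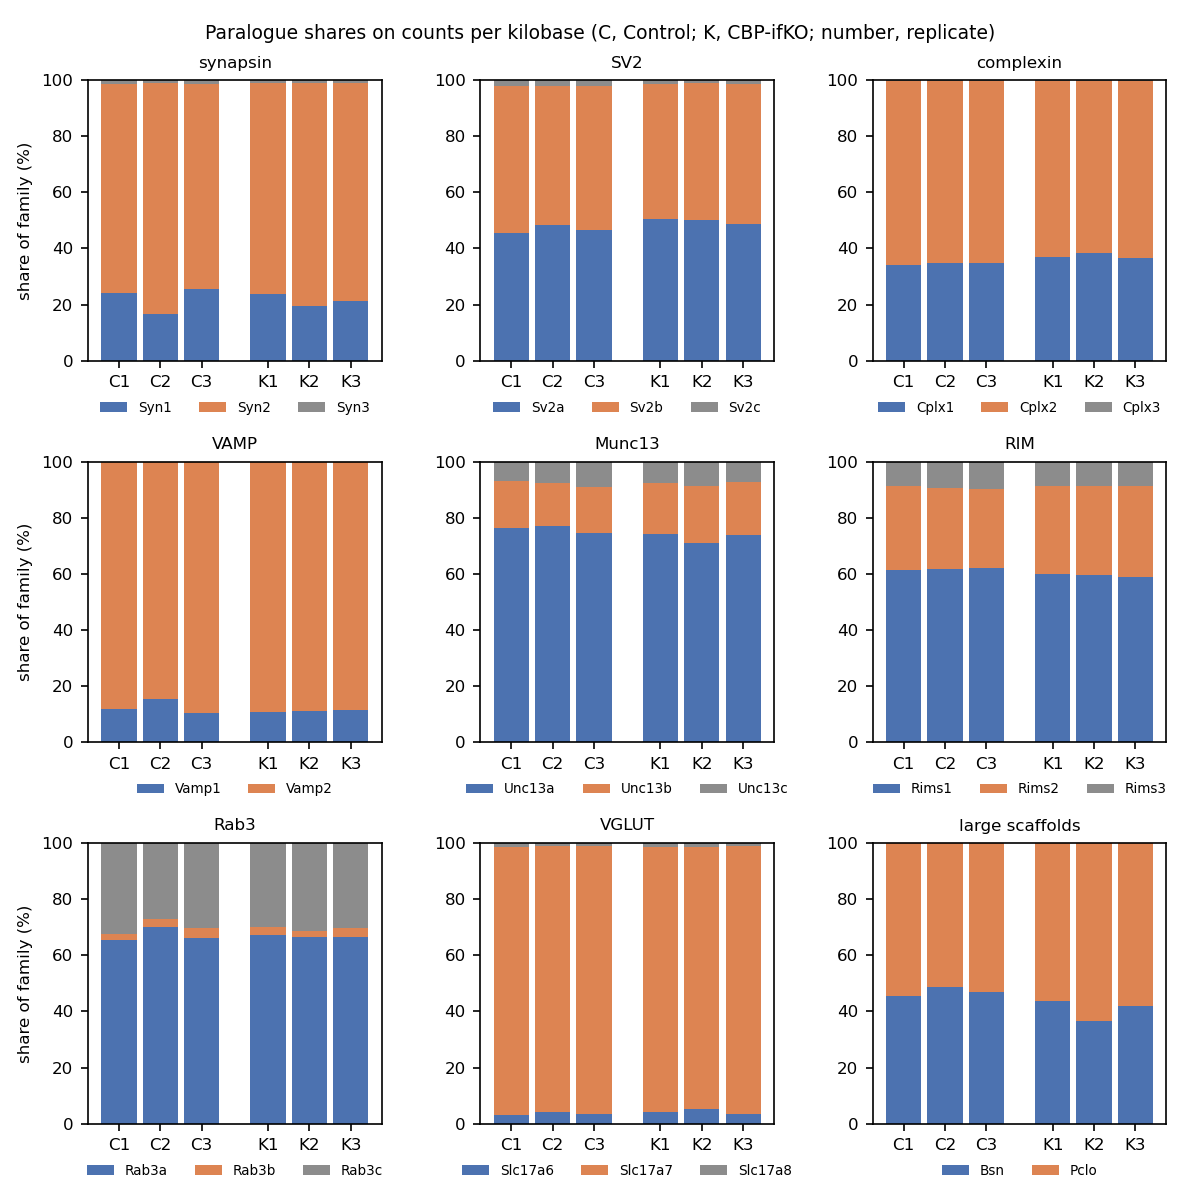
Stacked bars give each paralogue's share (%) of its family's counts per kilobase in Control libraries (C1 to C3) and CBP-ifKO libraries (K1 to K3). The shares shift by a few percentage points at most, with the widest shift in the pair Bsn and Pclo, where Bsn took 45.6% to 48.8% in Control and 36.5% to 43.7% in CBP-ifKO. No GC and length offsets were applied to the shares.

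The other genes of the release pathway were read from a list of 60, of which 58 were tested. In this list 9 genes fell (15.5%, against 4.99% of all genes tested) and none rose, with a median log2FC of -0.08. The groups did not overlap in 20 genes in the lower direction (34.5%, against 13.9% of all genes) and in 2, Rab27b and Itsn2, in the higher direction (3.45%, against 11.8%). Nsf, the ATPase that works with Napb, stood at 1040, 1091 and 1056 CPM in Control and at 900, 874 and 892 CPM in CBP-ifKO libraries. Its log2FC was -0.26 (SE 0.0519, edgeR adjusted p 0.00619), without overlap.

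Synaptotagmins include the calcium sensors of release, although several of them, Syt13 and Syt17 among them, do not bind calcium. Of 15 genes for synaptotagmins and the related Doc2 proteins, Syt17, Syt5 and Syt13 fell, with log2FCs of -0.45, -0.37 and -0.32 (edgeR adjusted p 0.00343, 0.00735 and 0.00438). Of all genes tested 4.99% fell. Syt1, the sensor of fast release, did not pass the test. It stood at 1631, 1688 and 1693 CPM in Control and at 1534, 1501 and 1500 CPM in CBP-ifKO libraries, without overlap (log2FC -0.14, SE 0.0509, edgeR adjusted p 0.106). Also lower were Tspoap1 (a RIM-binding protein), Rims4, Syngr1 (a synaptogyrin) and Slc32a1 (the vesicular GABA transporter), with log2FCs of -0.32, -0.30, -0.28 and -0.38, and none of these 4 passed the test with GC and length offsets. Slc32a1 is a gene of inhibitory neurons, which the driver does not target, and had an edgeR adjusted p of 0.045. It shares 24.9% of its exon bases with Gm14205 on the other strand, and with GC and length offsets its log2FC was -0.13 (edgeR adjusted p 0.536).

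Several measures moved along with these differences. In RNA from whole tissue, fewer cells of a type and less RNA per cell cannot be told apart. Of 5 general neuronal markers, Rbfox3, Tubb3 and Nefl fell (log2FCs -0.46, -0.46 and -0.22), and the summed level of the 5 ran from 4080 to 4160 CPM in Control and from 3880 to 4050 CPM in CBP-ifKO libraries. Of 5 excitatory neuron markers none passed the test, with sums of 1990 to 2380 and 2230 to 2500 CPM. CA1 pyramidal cell markers fell in 4 of 5 cases (sums 338 to 347 and 232 to 250 CPM), CA3 markers in 0 of 5 (178 to 180 and 155 to 164 CPM), and of 5 dentate granule cell markers 1 fell and 1 rose. Interneuron markers summed to 539 to 573 and 490 to 521 CPM, and 1 of 7, Sst, fell. None of the astrocyte, oligodendrocyte, microglia, endothelial, thalamus or choroid plexus markers tested passed the threshold, and of the striatal ones 1 of 4 rose. No marker tested was at 0 in every library. The part of these markers in the release machinery result was not tested.

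GC content moved with the size of the change. Over the 40 members, whose longest transcripts had 38.7% to 59.8% GC, Spearman's rho between GC content and log2FC was -0.433, which is across genes measured in the same libraries and given as a description. The 20 members richest in GC had a median log2FC of -0.19 and the other 20 of -0.11, with 4 genes that fell in each set. When trends on GC content and length were removed within each library, rho was 0.0668 and the medians -0.10 and -0.13. The members' median was then -0.12, where that of all genes tested was 0.02, and 6 members fell (15%), where 3.92% of all genes did. Sv2c, Unc13a, Cplx2, Vamp1, Rims1 and Napb kept their call, and Stx1a and Syn2 did not, with log2FCs of -0.16 in both (edgeR adjusted p 0.167 and 0.0734). The log2FC of Unc13a was -0.19 with the offsets (edgeR adjusted p 0.0356), that of Cplx2 -0.23 (edgeR adjusted p 0.012), and that of Dnm1 -0.04 (edgeR adjusted p 0.73).

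**Figure D4:**
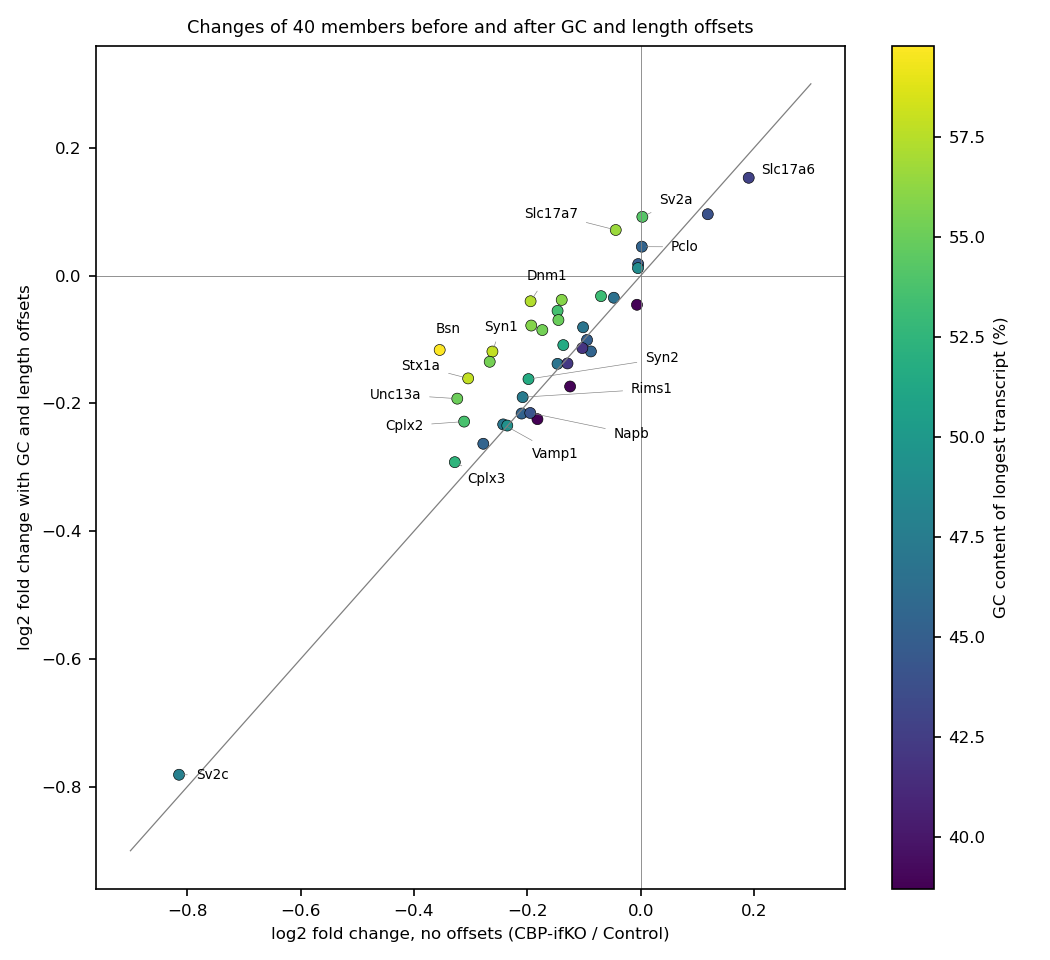
Each point is 1 of the 40 genes, with the log2FC (CBP-ifKO over Control) as fitted on the horizontal axis and with GC and length offsets on the vertical axis; the diagonal marks equal values and colour the GC content of the longest transcript (%). GC-rich genes such as Bsn, Stx1a and Dnm1 lie above the diagonal, nearer to 0 with the offsets, whereas Sv2c stays at -0.81 and -0.78.

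The libraries of a group differed in how low the members stood, and the number of calls changed when single libraries were left out. Relative to the Control mean, the median log2 ratio of the 40 genes was -0.10, -0.21 and -0.16 in CBP-ifKO libraries 1 to 3, against -0.01, -0.01 and 0.03 in Control libraries 1 to 3. CBP-ifKO 2 was the lowest of its group in 24 of the 40 genes, where it was so in 36.3% of all genes tested. Leaving out Control 3, CBP-ifKO 2 or CBP-ifKO 3 left 3 genes past the threshold, which were Sv2c, Unc13a and Cplx2 in each case. In these fits 467, 416 and 450 of all genes fell, and the members' median log2FC was -0.14, -0.12 and -0.14. Whether the calls were lost to the library left out or to the smaller group was not tested. Leaving out Control 1 left 5 genes, Sv2c, Unc13a, Cplx2, Stx1a and Rims3, where 790 of all genes fell. Sv2c, Unc13a and Cplx2 were past the threshold in all 16 alternatives to the edgeR fit at the same cut-off, whereas Rims1 was in 10, Syn2 and Stx1a in 8, Napb in 7 and Vamp1 in 4.

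**Figure D5:**
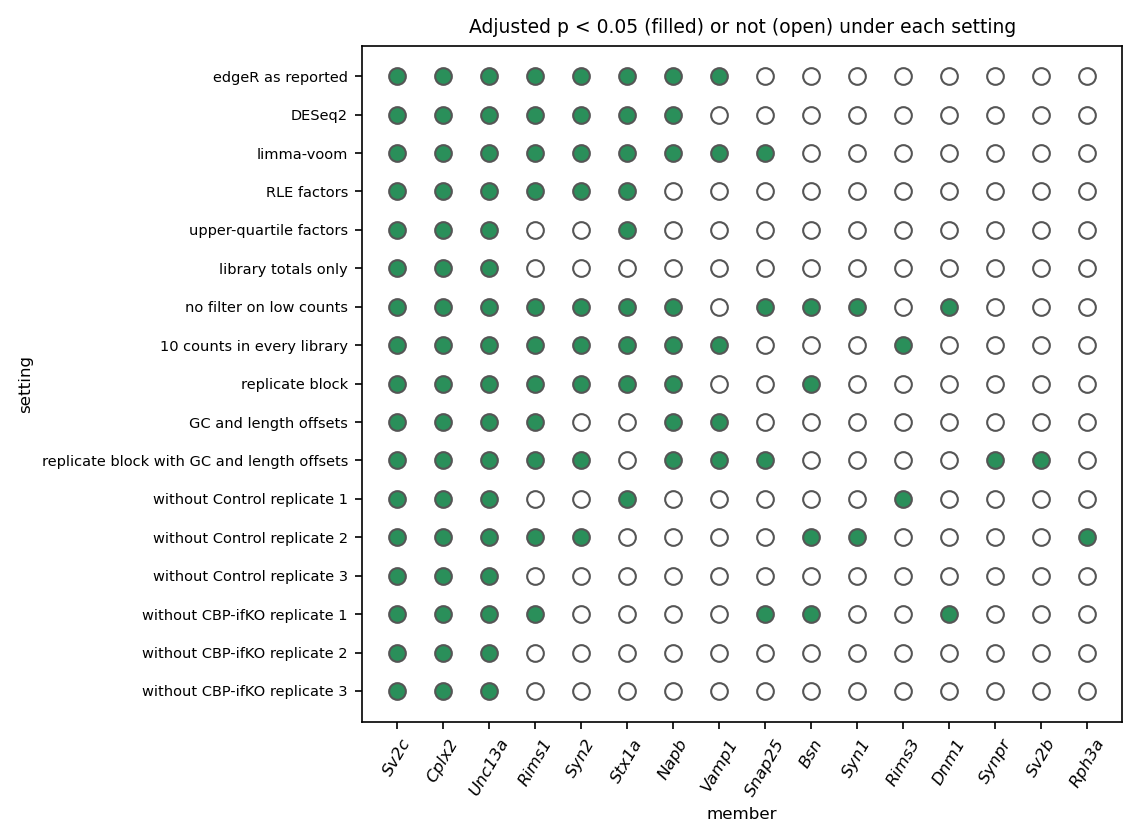
Rows are the edgeR fit as reported and its 16 alternatives, columns the 16 genes past the threshold in at least 1 of them, and a filled circle marks an adjusted p under 0.05. The columns of Sv2c, Cplx2 and Unc13a are filled throughout, those of Napb and Vamp1 are empty wherever a library was left out, and Bsn is filled in 4 rows.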

How the data were processed

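Total hippocampal RNA was sequenced as 50 bp single-end reads, and the sample titles gave each library's group and number. The deposited values are raw counts per gene. Per the study's methods and submitters' processing notes, the authors trimmed reads with Trim Galore 0.6.4, aligned them with STAR 2.6.1 to GRCm38, kept mapping qualities over 10 and counted exons with Rsubread and an Ensembl annotation; whether strand was used was not stated. The gene length deposited beside the counts served for per-kilobase levels.

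Of 55471 identifiers, 55230 (99.57%) matched a GENCODE annotation of GRCm38. Counts were tested with edgeR 4.0.16 (R 4.3.3; TMM, filterByExpr with a minimum count of 10 and total of 15, quasi-likelihood F-test, Benjamini-Hochberg over 17981 genes, adjusted p under 0.05). SEs were computed as the size of log2FC over the square root of F. The scripts were tested on simulated counts, in which the planted changes were larger than those of the members and no trend on GC content was set. That test does not show how reliable calls of the members' size are. Full values are given for members past the threshold, the 3 largest changes not past it, the most abundant member per length of each role and every glutamate transporter; other library values were chosen after they were seen. The members, the lists and these rules were chosen with earlier results of these data known.

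Alternatives were DESeq2 1.42.0 (the study's test, in another version), limma-voom 3.58.1, RLE, upper-quartile and total scaling, other filters, a replicate block, offsets for GC content and length (natural splines, 5 degrees of freedom), each library left out and adjusted p under 0.01. Depth was 10199008 to 14950257 counts per library, so that genes at a few CPM carry a larger counting error. Protein sequences were not used here. The values of 1 of the other release machinery genes that fell are not reported here.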

Additional observations from a re-analysis of the deposited data

How the results depend on the processing

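Of the 40 genes 8 fell in the edgeR fit, where 897 of all genes tested did. With upper-quartile factors 4 fell (826 of all genes) and with library totals only 3 (667 of all genes). There were 3 at an adjusted p under 0.01 (420 of all genes). With 1 library left out 3 to 8 fell, where 416 to 984 of all genes did. Of the other release machinery genes 9 fell, and 5 with GC and length offsets (704 of all genes). There were 5 at an adjusted p under 0.01 and 5 to 9 with 1 library left out. In either direction 1149 of all genes tested were called, and 476 at an adjusted p under 0.01. With the replicate block together with the GC and length offsets 1865 were. With 1 library left out the calls ran from 498 to 1326 (546 without Control 3, 498 without CBP-ifKO 2 and 526 without CBP-ifKO 3). The members' median log2 fold change was -0.10 with library totals only, where that of all genes was 0.04, and between -0.17 and -0.12 with 1 library left out. A fit left with 2 libraries in a group takes their spread from both groups. The causes of these differences were not tested.

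Same-numbered libraries were not treated as pairs in the edgeR fit as reported. Their deviations from the group means correlated weakly, at 0.077, 0.037 and 0.0022, which cannot show that the libraries were unpaired. With the replicate block 1210 genes and 8 members passed the threshold, with Bsn in and Vamp1 out.

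The log2FCs of 7 genes near 0 took the other sign under some alternatives, none past the threshold. For Sypl, Unc13b and Rims2 they were 0.00241, 0.00562 and 0.00478 with DESeq2, 0.000203, 0.00247 and 0.00208 with RLE factors, 0.00637, 0.00868 and 0.0084 with upper-quartile factors, 0.0395, 0.0414 and 0.0409 with library totals only and 0.00237, 0.00436 and 0.00374 with no filter on low counts. For Unc13b, Rims2 and Slc17a7 they were 0.018, 0.0117 and 0.0713 with GC and length offsets and 0.0172, 0.0119 and 0.0687 with the replicate block as well, and for Slc17a7 0.00201 with library totals only. With 1 library left out the ranges were -0.0624 to 0.0333 for Sypl, -0.0353 to 0.0459 for Sv2a, -0.2125 to 0.0839 for Vamp2, -0.0262 to 0.0235 for Unc13b, -0.0215 to 0.0289 for Rims2, -0.1429 to 0.0893 for Pclo and -0.1027 to 0.069 for Slc17a7. Of the members' values under alternatives, 43 lost and 17 gained a call, and DESeq2 gave no adjusted p for Cplx3.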
